A study of Danio rerio with 10 samples.

Results

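Mitochondrial ribosomal proteins are the protein parts of the ribosome inside mitochondria, which is separate from the cytosolic ribosome. They were taken as the rows of the expression table whose gene symbol starts with mrpl or mrps followed by a digit, and 76 of 32233 rows met this rule, each with 1 row and 1 gene ID. The table holds FPKM, a fragment count corrected for transcript length and library size, for 10 RNA sequencing libraries of gata1-positive erythroid cells from zebrafish embryos at 24 hours post fertilization. The study compared 5 libraries from sf3b1 mutant embryos (replicates 1, 3, 4, 5 and 6) with 5 from their siblings (replicates 2 to 6). sf3b1 encodes a subunit of the U2 small nuclear ribonucleoprotein, which recognises the branch point of introns. No allele is named in the labels, which also leave out whether heterozygous carriers were among the siblings and whether each library had a clutch of its own. P-values therefore cover only the spread among these samples, and that spread may be technical.

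The mitochondrial ribosome translates the few messenger RNAs that mitochondrial DNA encodes, all for subunits of the respiratory chain and ATP synthase. In animals its ribosomal RNAs come from mitochondrial DNA, whereas every one of its proteins is encoded in the nucleus, made in the cytosol and imported. Erythroid precursors depend on mitochondria for heme synthesis and iron-sulfur cluster assembly before they mature. The mrpl genes encode proteins of the large subunit, where peptide bonds form, and most mrps genes encode proteins of the small subunit, which binds messenger RNA. In mammals the proteins of mrps30 and mrps18a sit in the large subunit, and that of mrps36, whose current symbol in the gene name table is kgd4, belongs to the 2-oxoglutarate dehydrogenase complex. Counted in this way, 49 members belonged to the large subunit, 26 to the small subunit and 1 by name only. By their uniform names in mammals, 46 have a bacterial homologue and 29 are specific to mitochondria.

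The libraries differed in their labels, in their principal components and in their marker levels. Sibling 2 has a wild type title and a mutant genotype tag, so results are also given with that library counted as a mutant. Its sf3b1 level was 41.0 FPKM, inside the range of the other siblings (36.3 to 43.9) and above the mutants (15.996 to 21.3). The fall of sf3b1 in mutants was 1.05 on the log2 scale of FPKM + 1 (SE 0.13, limma adjusted p = 3.26e-04, lower in 5 of 5 mutant libraries than in any sibling). On the first principal component, which held 27.1% of the variance, the mutants lay between -34.2 and -30.4. The siblings lay there between 23.8 (sibling 2) and 40.5 (sibling 6). On the second principal component, which held 17.2% of the variance, mutant 1 and sibling 2 stood apart at 50.9 and 45.5 while the other libraries lay between -35.4 and -2.7. The erythroid markers were all detected, with summed levels of 2448.2 to 8652.2 FPKM in the mutant libraries and 4910.4 to 22024.7 FPKM in siblings and a median log2 fold change of -0.98. With limma 0 of 10 passed in either direction, and 0 were higher and 5 lower at an unadjusted p under 0.05. Of all 13003 tested rows 5.59% passed upward and 8.74% downward, and 11.4% were higher and 17.6% lower unadjusted. Of 7 tested neutrophil and macrophage markers 6 fell, with sums of 109.7 to 252.9 FPKM in the mutant libraries and 324.7 to 666.0 FPKM in the sibling libraries and none of the 8 at 0 throughout. Of 4 tested muscle markers 1 fell and 0 rose, with sums of 32.6 to 95.2 FPKM in mutants against 61.8 to 149.9 in siblings. At an unadjusted p under 0.05, 1 muscle marker was higher and 1 lower. Markers of epidermis (127.5 to 632.9 against 119.0 to 380.8 FPKM), endothelium (63.4 to 84.8 against 64.2 to 90.1) and neural cells (33.2 to 89.3 against 38.2 to 83.4) had overlapping sums, and 0 of them passed, with 2 epidermal markers higher and 0 markers of these lists lower at an unadjusted p under 0.05. Hatching gland markers were too low to test, at sums of up to 1.7 FPKM in mutants and 2.3 in siblings. The part of these cells in the results below was not tested.

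Transcripts of many mitochondrial ribosomal proteins were higher in the mutant cells, and none passed the test in the other direction. Of 75 tested members 17 rose and 0 fell at a limma adjusted p under 0.05, a threshold that 5.59% of all 13003 tested rows passed upward and 8.74% downward. At an unadjusted p under 0.05, 28 members were higher and 0 lower, where 11.4% of all rows were higher and 17.6% lower. The rises ran from 0.49 to 1.24 on the log2 scale of FPKM + 1, or 1.41-fold to 2.37-fold. The median log2 fold change was 0.21 over the members and -0.06 over all tested rows, and 60 of 75 members had a positive value against 44.5% of all rows. MRPL52 was not tested, because its mean was under 1 FPKM. No member passed that minimum through the level of 1 group alone. In bulk libraries, fewer cells of a type and less RNA per cell cannot be told apart.

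**Figure D1:**
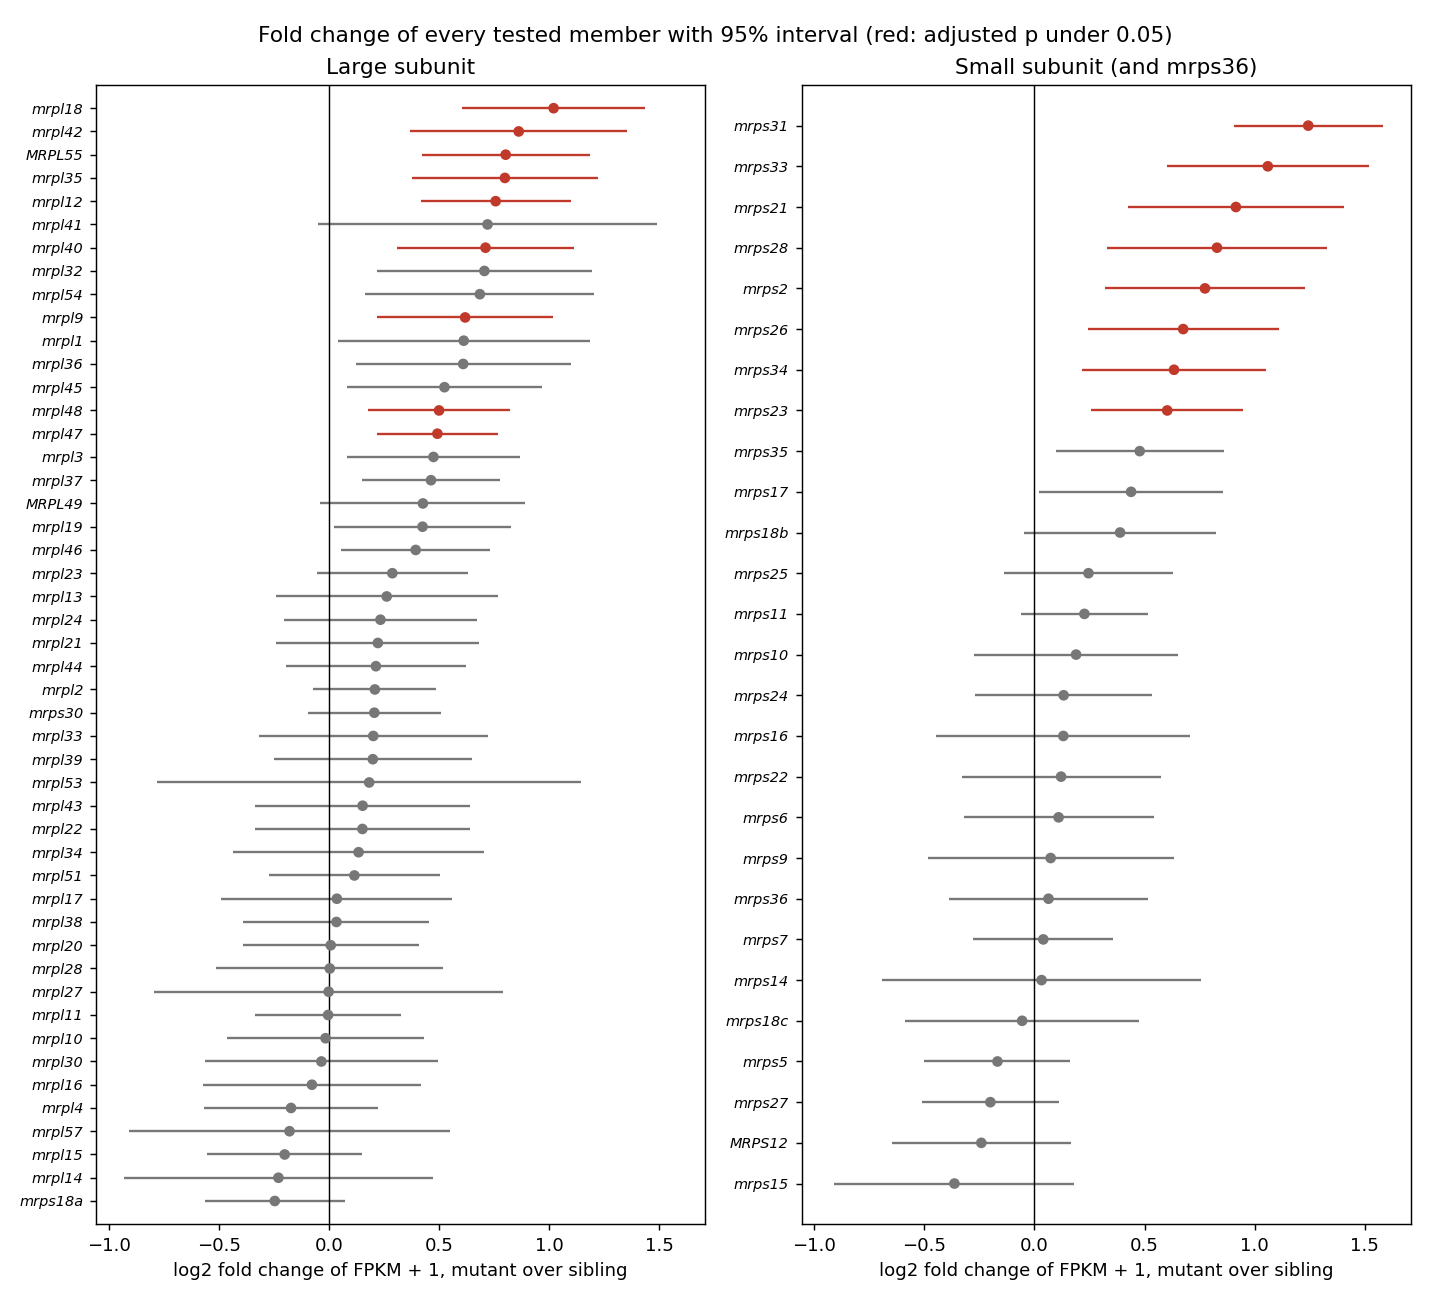
Log2 fold change of FPKM + 1 in mutants over siblings (horizontal axis) for the 75 tested members, large subunit at left and small subunit with mrps36 at right, with 95% intervals from limma. Red marks the 17 members with an adjusted p under 0.05, all to the right of 0, led by mrps31 and mrps33 in the small subunit and mrpl18 in the large subunit.

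Mean sibling levels ran from 0.51 to 49.6 FPKM with a median of 9.40, against a median of 4.77 FPKM over all tested rows, and 53 of the 76 members lay between 5 and 20 FPKM. The highest was mrps15, by its symbol a small subunit protein, although no current symbol was found for its gene ID. It was at 49.6 ± 13.015 FPKM (SD, n = 5) in siblings and 39.0 ± 13.013 in mutants. Its libraries lay at 32.2, 50.5, 67.9, 44.4 and 53.1 FPKM in the sibling libraries and 23.4, 29.7, 57.0, 42.8 and 42.1 FPKM in mutants, so the groups overlapped (log2 fold change -0.36, 95% interval -0.91 to 0.18, limma adjusted p = 0.378). Next were mrpl2, a large subunit protein close to the catalytic centre, at 39.7 ± 2.57 FPKM in the sibling libraries and 46.2 ± 5.72 in mutants, and mrpl51, also of the large subunit, at 30.1 ± 3.11 and 33.5 ± 10.2 FPKM. Neither passed the test (adjusted p = 0.318 and 0.719). Mutant 4, at 51.7 FPKM, stood far above the other mutants for mrpl51 (27.3 to 30.6 FPKM). Among neighbours in this order, the sibling ranges of mrps15 (32.2 to 67.9 FPKM) and mrpl2 (35.8 to 43.0 FPKM) overlapped.

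At the low end of the tested members were mrps25, mrpl1 and mrpl53. mrps25 was at 1.14 ± 0.27 FPKM in the sibling libraries and 1.54 ± 0.39 in mutants (SD, n = 5, adjusted p = 0.398), and mrpl1 at 1.33 ± 0.87 and 2.46 ± 0.78 (adjusted p = 0.145). mrpl53, a protein of the large subunit, was listed at 0 in mutant 1 and at 1.05, 5.35, 1.91 and 1.66 FPKM in the other mutants, with siblings at 1.28, 1.296, 0.73, 0.36 and 3.34 FPKM. Its groups overlapped throughout, and the interval of its log2 fold change, -0.78 to 1.15, was the widest of the genes named here. MRPL52 was listed at 0 in mutant 5, mutant 6 and sibling 6 and did not exceed 0.60 FPKM in mutants or 0.91 FPKM in siblings. An exact 0 in such a table can be a failed estimate, and no fold is given for it.

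The small subunit held the largest rise. mrps31 (ENSDARG00000057855, GRCz10 chromosome 5, 23634646 to 23650264), a small subunit protein with no bacterial counterpart, was at 33.3, 35.6, 36.9, 41.7 and 34.2 FPKM in the mutant libraries and 11.4, 16.8, 13.9, 19.7 and 13.1 FPKM in siblings. Every mutant library lay well above every sibling library, with means of 36.4 ± 3.30 and 15.0 ± 3.30 FPKM (SD, n = 5). The log2 fold change was 1.24 (SE 0.16, limma adjusted p = 4.35e-04), and with sibling 2 counted as a mutant the adjusted p was 0.105.

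mrps33 (ENSDARG00000020015, chromosome 4, 12103418 to 12107190) and mrps21 (ENSDARG00000070985, chromosome 19, 9039209 to 9043981) followed. mrps33, specific to mitochondria, lay at 23.7, 33.7, 45.7, 35.0 and 46.9 FPKM in the mutant libraries and 21.7, 16.5, 12.9, 20.5 and 13.8 FPKM in siblings, so only mutant 1 came near the sibling range. Its log2 fold change was 1.06 (SE 0.21, adjusted p = 0.0068), and it kept its call with sibling 2 counted as a mutant (adjusted p = 0.0285). mrps21, the counterpart of a bacterial small subunit protein, lay at 28.4, 51.0, 52.6, 41.7 and 42.3 FPKM in the mutant libraries and 18.7, 26.6, 29.6, 24.9 and 13.8 FPKM in siblings. Mutant 1 was again the lowest mutant and lay below sibling 4, and the other mutants stood apart from the siblings (log2 fold change 0.91, SE 0.22, adjusted p = 0.0189).

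Of the large subunit, mrpl18, mrpl12 and MRPL55 had the smallest p-values. mrpl18 (ENSDARG00000060199, chromosome 14, 35159364 to 35165223) encodes the counterpart of the bacterial protein that binds the small ribosomal RNA of the central protuberance. It was at 10.5, 13.04, 18.2, 14.9 and 12.4 FPKM in the mutant libraries and 4.13, 7.06, 6.99, 8.26 and 5.32 FPKM in siblings, with no overlap (log2 fold change 1.02, SE 0.19, limma adjusted p = 0.0049). mrpl12 (ENSDARG00000038768, chromosome 3, 49018919 to 49031260) encodes the stalk protein that brings translation factors to the ribosome. Its mutant libraries were at 30.7, 28.3, 46.0, 29.0 and 33.2 FPKM, all above the siblings at 18.2, 21.1, 20.8, 15.8 and 19.9 FPKM, and mutant 4 was far above the other mutants (log2 fold change 0.76, SE 0.16, adjusted p = 0.0082). MRPL55 (ENSDARG00000043402, chromosome 8, 15213743 to 15216095) lay at 15.3, 20.9, 18.1, 19.3 and 16.9 FPKM in the mutant libraries and 11.95, 11.1, 6.17, 9.96 and 11.5 FPKM in siblings. The current symbol of its gene ID is zgc:171480. The groups were separate (log2 fold change 0.80, SE 0.18, adjusted p = 0.0110), also at an adjusted p of 0.0426 with sibling 2 counted as a mutant. With that library so counted, mrpl18, mrpl12 and mrps21 had adjusted p of 0.237, 0.116 and 0.207.

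**Figure D2:**
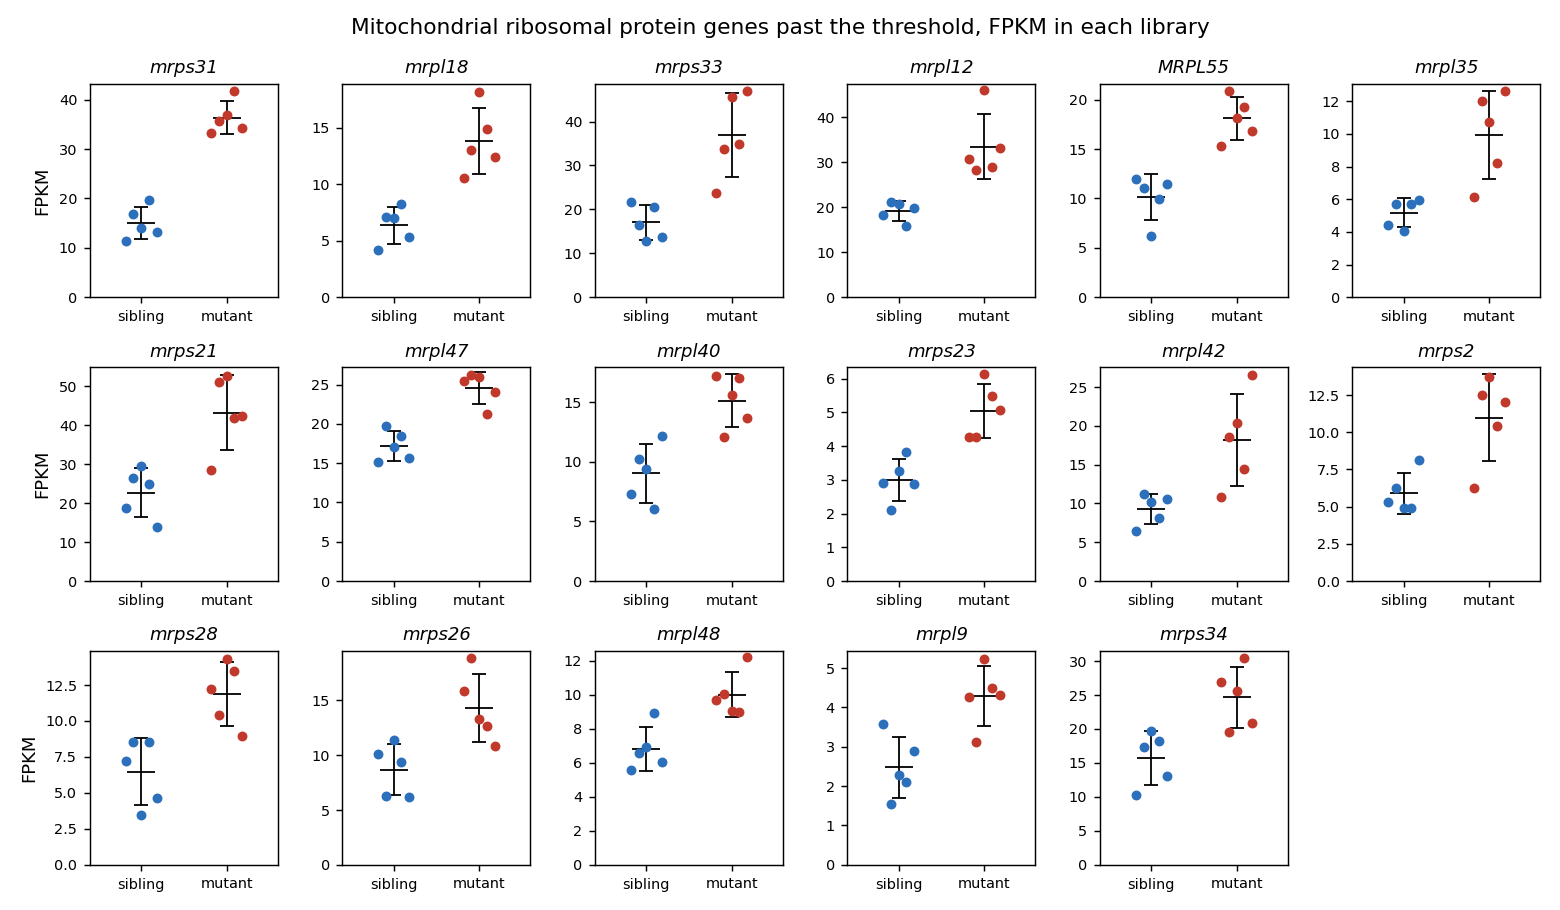
FPKM in each library (points) for the 17 members with an adjusted p under 0.05, siblings in blue and mutants in red, with the mean and SD of 5 libraries in black. For 10 of them, such as mrps31 and mrpl18, the lowest mutant lies above the highest sibling, and for 7, such as mrps21 and mrps2, the groups overlap.

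The 6 genes described so far as rising (mrps31, mrps33, mrps21, mrpl18, mrpl12 and MRPL55) kept their calls when any of the 10 libraries was left out. The other 11 lost theirs without at least 1 library, at adjusted p of 0.0508 to 0.106.

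mrpl35, a large subunit protein with a bacterial homologue, was at 6.14, 12.02, 10.7, 8.22 and 12.6 FPKM in the mutant libraries and 4.40, 5.72, 4.05, 5.72 and 5.98 FPKM in siblings. The lowest mutant, replicate 1, lay just above the highest sibling (log2 fold change 0.80, adjusted p = 0.0179, and 0.0521 without sibling 4). mrpl47, whose protein lies near the exit of the peptide tunnel, was at 25.5, 26.2, 25.9, 21.2 and 24.1 FPKM in the mutant libraries and 15.1, 19.8, 17.1, 18.4 and 15.6 FPKM in siblings. The separation was complete and the change small (log2 fold change 0.49, adjusted p = 0.0224, and 0.0531 without mutant 3).

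mrpl40, of the large subunit, was at 17.2, 12.1, 15.6, 17.0 and 13.7 FPKM in the mutant libraries and 7.28, 10.3, 9.38, 6.003 and 12.2 FPKM in siblings, where sibling 6 just exceeded mutant 3. Its adjusted p of 0.0244 became 0.0516, 0.0589 and 0.0544 without mutant 4, mutant 5 or sibling 5. mrps23, of the small subunit, was at 4.27, 4.27, 6.13, 5.47 and 5.08 FPKM in the mutant libraries and 2.89, 2.09, 3.27, 3.83 and 2.89 FPKM in siblings, with no overlap. Its adjusted p of 0.0253 rose to between 0.0516 and 0.0602 when mutant 4, 5 or 6 or sibling 3 or 6 was left out. mrpl42, whose protein is specific to mitochondria, was at 10.9, 18.6, 20.3, 14.4 and 26.5 FPKM in the mutant libraries and 6.41, 11.2, 10.2, 8.12 and 10.5 FPKM in siblings. Only mutant 1 fell within the sibling range (log2 fold change 0.86, adjusted p = 0.0258), and the call ended without mutants 3, 4 or 6 or siblings 2 or 5, at 0.0508 to 0.0622.

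mrps2 encodes the counterpart of a bacterial small subunit protein, and mutations in the human gene cause a mitochondrial disease. It was at 6.22, 12.5, 13.7, 10.4 and 12.1 FPKM in the mutant libraries and 5.34, 6.22, 4.88, 4.91 and 8.17 FPKM in siblings. Mutant 1 lay among the siblings and the other mutants above them (log2 fold change 0.77, adjusted p = 0.0282), and the call ended without any of mutants 3 to 6 or siblings 2, 4 and 5, at 0.0508 to 0.0727.

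Another 5 members rose by 0.50 to 0.83 on the log2 scale of FPKM + 1 with adjusted p of 0.0321 to 0.0468. They were mrps28 (11.9 ± 2.21 against 6.48 ± 2.32 FPKM, SD, n = 5), mrps26 (14.3 ± 3.10 against 8.66 ± 2.34), mrpl48 (9.99 ± 1.32 against 6.81 ± 1.29), mrpl9 (4.28 ± 0.76 against 2.48 ± 0.78) and mrps34 (24.7 ± 4.46 against 15.7 ± 3.92). mrps28 and mrpl48 had separate groups and the other 3 overlapped. mrps34 is a small subunit gene whose human counterpart is mutated in a form of Leigh syndrome, and mrpl9 is the counterpart of a long bacterial large subunit protein. The position of mrps28 overlaps that of sde2, and whether strand was used in counting is not given, so its reads may be shared. Each of these calls ended in 6 to 9 of the 10 fits that left out 1 library. For mrps28 this was without mutants 1, 3, 4 or 5 or siblings 4 or 6 (0.0519 to 0.0751), and for mrps26 without mutants 1, 3, 4 or 5 or siblings 3, 5 or 6 (0.0632 to 0.0978). For mrpl48 it was without any library but sibling 5 (0.0542 to 0.0916), for mrpl9 without any but mutant 3 and sibling 2 (0.0562 to 0.0935), and for mrps34 without any but mutant 3 and sibling 4 (0.0587 to 0.106).

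Genes of both subunits rose. In the small subunit 8 of 26 tested genes rose and 0 fell, with a median log2 fold change of 0.21 (10 higher and 0 lower at an unadjusted p under 0.05). In the large subunit 9 of 48 rose and 0 fell, with a median of 0.22 (18 higher and 0 lower unadjusted). Over all tested rows 5.59% rose, and 11.4% were higher at an unadjusted p under 0.05. Among proteins specific to mitochondria 8 of 28 rose, with a median of 0.41, and among those with a bacterial homologue 9 of 46 rose, with a median of 0.17. The 10 mitochondria-specific genes of the small subunit held 5 of the calls and had a median of 0.54. Of the 16 small subunit genes with a bacterial homologue 3 rose, with a median of 0.12. In the large subunit 3 of 18 tested mitochondria-specific genes rose, with a median of 0.303. There, 6 of 30 genes with a bacterial homologue rose, with a median of 0.215. These differences between classes were not tested. The 17 genes lay on 13 chromosomes, with no more than 2 on any, and had a median span of 5860 bases against 6665 for the members that did not pass.

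The other 58 tested members did not pass, and 43 of them had positive and 15 negative log2 fold changes, from -0.36 to 0.72. For 52 of the 58 the 95% interval lay within 1 log2 unit of 0 on either side, so a doubling on that scale was inside the interval for 6. Nearest to the threshold were mrpl37 and mrpl32 of the large subunit, at 7.96 ± 0.65 against 5.56 ± 1.06 and 8.95 ± 1.79 against 5.26 ± 1.78 FPKM (SD, n = 5, limma adjusted p = 0.0511 and 0.0542). In both, every mutant library lay above every sibling library. mrpl54, of the large subunit, at 11.4 ± 3.73 against 6.60 ± 1.64 FPKM and mrps35, of the small subunit, at 23.1 ± 3.68 against 16.5 ± 3.94 FPKM came next (adjusted p = 0.0754 and 0.0902). mrpl37 passed without sibling 6 (adjusted p = 0.0469), mrpl32 without sibling 3 (0.0443), mrpl54 without mutant 1 (0.0393) and mrps35 without sibling 5 (0.0496). Counting all members, the ranges of 13 were separate with mutants above and of 0 with mutants below, where 4.98% and 7.26% of all tested rows were separate in those directions.

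Among members with similar means in both groups were mrpl11 and mrpl10, named after their values were seen. Their proteins form the base of the stalk that carries mrpl12, and they were at 14.0 ± 1.69 against 14.1 ± 2.90 FPKM and 6.74 ± 1.62 against 6.93 ± 2.39 FPKM (SD, n = 5). Their log2 fold changes had 95% intervals of -0.34 to 0.33 and -0.46 to 0.43. A difference between these genes and the ones that rose was not tested. The position of mrpl11 overlaps that of tmem265, so its reads may be shared.

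Of the 3 pairs of members within 50 kb of each other, 1 held a rising gene. mrpl9 rose while mrpl24, within 50 kb of it on chromosome 19, was at 7.52 ± 0.77 and 6.48 ± 2.09 FPKM (SD, n = 5, adjusted p = 0.488). mrps11 and mrpl46, adjacent on chromosome 7, were at 20.2 ± 2.19 against 17.1 ± 2.12 and 2.86 ± 0.72 against 1.90 ± 0.05 FPKM, and mrpl16 and mrpl39, adjacent on chromosome 1, at 12.1 ± 3.82 against 12.6 ± 2.84 and 5.45 ± 1.81 against 4.51 ± 0.88 FPKM. None of these passed (adjusted p = 0.287, 0.112, 0.861 and 0.572). The positions of 16 members overlap another row of the table, so their reads may be shared, as for mrps28. Besides mrps28 they include mrpl51, mrps25, mrps35, mrpl11, mrpl24, mrpl16 and mrpl39. Of the 15 tested members with an overlap 1 rose, against 16 of 60 without an overlap. These are 6.67% and 26.7%, beside 5.59% of all tested rows, and the difference was not tested. The member on the chromosome of sf3b1, mrpl30, lies 10.3 Mb from it and was at 12.5 ± 4.76 against 12.3 ± 2.44 FPKM (adjusted p = 0.945).

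Within the groups, libraries differed in how high the members stood together. The members' median deviation from their gene means was 0.42 on the log2(FPKM + 1) scale in mutant 4, 0.18 in mutants 5 and 6, and 0.01 and 0.02 in mutants 1 and 3. In siblings it was -0.21, -0.19, -0.02, -0.15 and -0.06 for replicates 2 to 6. Among the mutants, mutant 4 had the highest summed level of the erythroid markers (8652.2 FPKM) and the lowest of the epidermal markers (127.5 FPKM), whereas mutant 1 had the lowest erythroid (2448.2 FPKM) and the highest epidermal sum (632.9 FPKM). The part of these markers in the members' levels was not tested. Mutant 4 was the highest of the 10 libraries for 34 of the 75 tested members and the lowest for 0. The summed level of all 76 members was 1034 ± 139 FPKM (SD, n = 5) in mutants and 821 ± 46.5 FPKM in siblings, and the lowest mutant (mutant 1, 878.7) was just under the highest sibling (sibling 4, 883.0). Without mutant 4 the number of rising members was 8 in place of 17, and without mutants 3, 5 or 6 it was 11, 9 and 11. Over all 13003 tested rows, 558 rose without mutant 4 and 580, 547 and 562 without mutants 3, 5 or 6, in place of 727. With sibling 2 counted as a mutant, 3 members rose, namely mrps33, MRPL55 and mrpl9. In that fit 300 of all 13003 tested rows rose and 461 fell, against 727 and 1137 in the main fit. The limma adjusted p of sf3b1 was 0.0479 there. In every one of these fits 0 members fell.

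**Figure D3:**
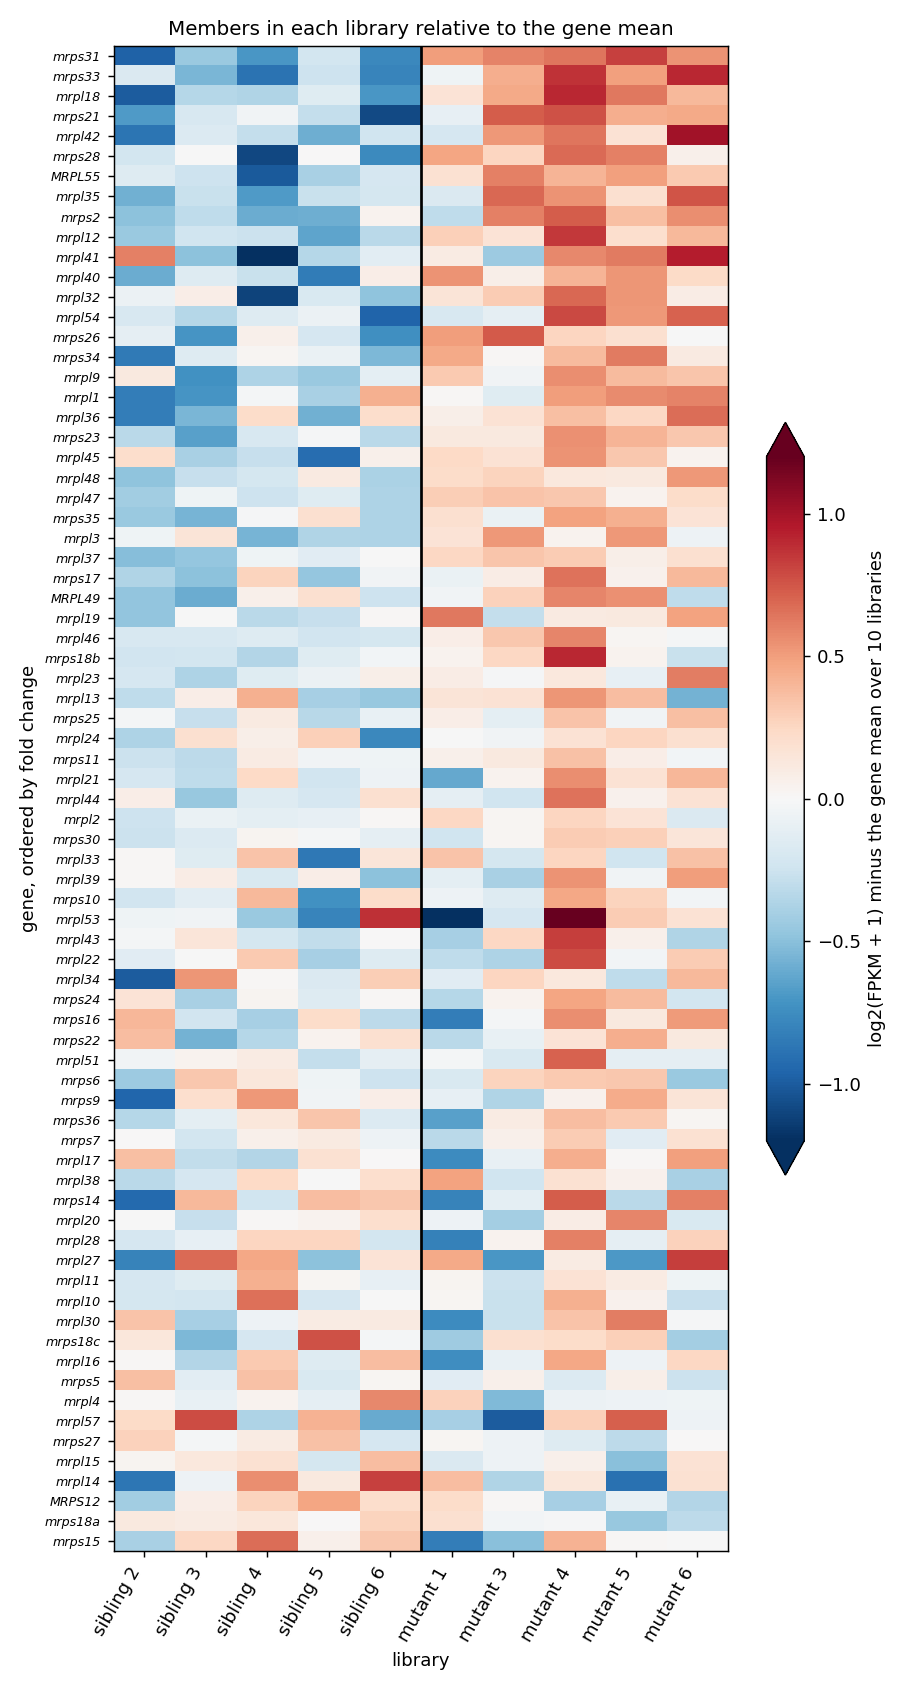
Log2(FPKM + 1) of each tested member (rows, ordered by fold change) in each library (columns, siblings left of the line, mutants right), minus the gene mean over the 10 libraries. Mutant 4 is red in most rows, with a median of 0.42, while mutants 1 and 3 have medians of 0.01 and 0.02 and the siblings lie between -0.21 and -0.02.

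Other nuclear genes of mitochondrial translation and of mitochondrial DNA expression passed the test in both directions, more of them upward. Over 57 tested genes from these lists 8 rose and 2 fell, with a median log2 fold change of 0.30. Of the 8, 5 came from the 19 tested genes of mitochondrial DNA expression and messenger RNA handling. In the other lists 2 of 14 translation factors, 1 of 18 assembly and rRNA modification genes and 0 of 6 ribosomal proteins rose. A positive value was found for 42 of the 57, against 44.5% of all rows. The called counts were 14.0% of the genes upward, beside 5.59% of all rows, and 2 of 57 downward, beside 8.74%. Among 14 translation factors 2 rose and 1 fell. tufm, the elongation factor that delivers aminoacyl-tRNA, was at 58.9, 63.9, 81.2, 76.2 and 57.9 FPKM in the mutant libraries and 35.4, 32.9, 40.2, 42.0 and 38.8 FPKM in siblings. The groups were far apart (log2 fold change 0.81, SE 0.14, limma adjusted p = 0.0030), and the call ended with sibling 2 counted as a mutant (0.0958).

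mtrf1l, a release factor, was at 7.90 ± 2.58 against 3.80 ± 1.34 FPKM (adjusted p = 0.0397), with mutant 1 at 3.69 FPKM among the siblings. Its call ended without any library but mutant 1 and sibling 6, at 0.0612 to 0.0946. guf1, an elongation factor related to bacterial LepA, fell, with every mutant (2.52 to 3.57 FPKM) below every sibling (4.12 to 5.37 FPKM). Its log2 fold change was -0.51 (SE 0.14, adjusted p = 0.0283), and the call ended without mutants 3 or 5 or siblings 4 or 6, at 0.0565 to 0.0685.

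Genes of mitochondrial DNA expression and messenger RNA handling followed, with 5 of 19 tested rising and 1 falling, where 5.59% of all rows rose and 8.74% fell. tbrg4, a protein that stabilises mitochondrial messenger RNAs in mammals, was at 15.6, 18.3, 26.0, 19.1 and 20.4 FPKM in the mutant libraries and 9.12, 8.48, 8.58, 7.71 and 10.4 FPKM in siblings (log2 fold change 1.07, SE 0.15, adjusted p = 7.96e-04). supv3l1, an RNA helicase of mitochondrial RNA decay, was at 6.91, 9.36, 10.9, 6.45 and 9.17 FPKM in the mutant libraries and 2.36, 2.90, 2.30, 2.04 and 5.46 FPKM in siblings (1.29, SE 0.22, adjusted p = 0.0028). Both groups were separate for each gene, although sibling 6 of supv3l1 came near the mutants. With sibling 2 counted as a mutant the adjusted p was 0.0427 for tbrg4 and 0.101 for supv3l1.

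tfam, the factor that packages mitochondrial DNA and starts its transcription, fell. It was at 2.65, 2.55, 3.55, 3.999 and 4.04 FPKM in the mutant libraries and 7.54, 9.17, 9.31, 4.84 and 5.69 FPKM in siblings, so siblings 5 and 6 lay closest to the mutants (log2 fold change -0.91, SE 0.19, limma adjusted p = 0.0097). With sibling 2 counted as a mutant the adjusted p was 0.118. tfb2m, the partner factor of mitochondrial transcription, rose to 5.37 ± 0.87 from 3.23 ± 0.62 FPKM (SD, n = 5, adjusted p = 0.0261), a call that ended without mutants 5 or 6 or sibling 5 (0.0507 to 0.0610). ptcd1, an RNA-binding protein, and ssbp1, the single-stranded DNA-binding protein of mitochondria, rose by 0.50 and 0.78 on the log2 scale (adjusted p = 0.0287 and 0.0312). The ptcd1 call ended without mutants 3, 4 or 5 or siblings 2, 3 or 4 (0.0524 to 0.0674), and the ssbp1 call without any library but mutants 1 and 6 and sibling 3 (0.0516 to 0.0766).

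Among 18 tested genes of mitochondrial ribosome assembly and rRNA modification 1 rose and 0 fell (5 higher and 0 lower at an unadjusted p under 0.05). That 1 gene is 5.56% of the list, near the 5.59% of all rows that rose, and 11.4% of all rows were higher unadjusted. The gene, ngrn, which in human cells acts on the large ribosomal RNA, was at 5.43 ± 0.98 against 3.49 ± 0.60 FPKM (SD, n = 5). Its adjusted p was 0.0436, and it passed in 1 of the 10 fits that left out 1 library, the one without mutant 1 (0.0513 to 0.104 in the others). nsun4, an rRNA methyltransferase, was at 2.45 ± 0.24 against 1.52 ± 0.37 FPKM (adjusted p = 0.0651) but passed without sibling 2 (0.0398). Of the 6 mitochondrial ribosomal proteins that carry other names 0 rose and 0 fell (1 higher and 0 lower unadjusted), and their median was 0.15. Their log2 fold changes were positive for 3 and negative for 3, so 50% were positive against 44.5% of all rows. The smallest p-values there belonged to aurkaip1, at 28.6 ± 5.62 against 21.2 ± 4.61 FPKM, and chchd1, at 5.06 ± 0.65 against 3.93 ± 0.93 FPKM (adjusted p = 0.152 and 0.223).

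The table holds 13 protein-coding genes of mitochondrial DNA, the genes whose transcripts this ribosome translates. Of these 0 rose and 0 fell with limma, where 5.59% of all rows rose and 8.74% fell. At an unadjusted p under 0.05, 2 were higher and 0 lower, where 11.4% of all rows were higher and 17.6% lower. Their median log2 fold change was 0.25, and 11 of the 13 had a positive value against 44.5% of all rows. mt-co3, a cytochrome oxidase subunit, was at 1432, 1357, 1974, 1311 and 1685 FPKM in the mutant libraries and 845, 1146, 1198, 943 and 1285 FPKM in siblings. The lowest mutant was just above the highest sibling, and the adjusted p was 0.0905. mt-nd3, a complex I subunit, was at 80.5 ± 21.1 against 56.4 ± 18.3 FPKM (SD, n = 5), missed the threshold (adjusted p = 0.147) and passed without sibling 3 (0.0454).

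**Figure D4:**
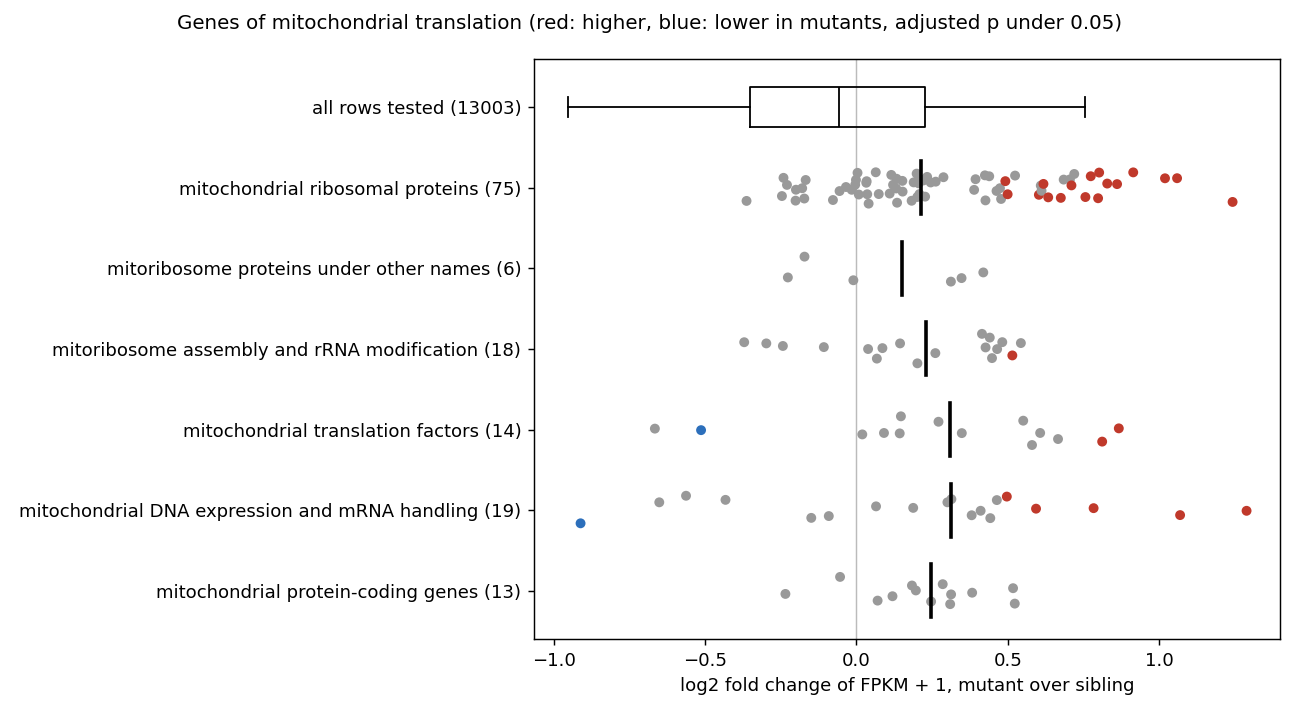
Log2 fold change of FPKM + 1 in mutants over siblings (horizontal axis) for gene lists of mitochondrial translation and mitochondrial DNA expression. Black bars mark the medians, red genes that rose and blue genes that fell. A box (quartiles, whiskers at 5% and 95%) shows all 13003 tested rows. The members have their median at 0.21 with 17 red points and 0 blue ones, and the blue points in other groups are guf1 and tfam.

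Beside them stand the proteins of the cytosolic ribosome, with 85 rows. They were taken by an analogous name rule, with rplp and rpsa names added and some similar names left out. Of 83 tested 0 rose and 4 fell with limma, where 5.59% of all rows rose and 8.74% fell. At an unadjusted p under 0.05, 1 was higher and 7 lower, where the shares of all rows were 11.4% and 17.6%, and their median log2 fold change was -0.18. Of the 83, 8 had a positive and 75 a negative value, so 9.64% were positive against 44.5% of all rows. The difference between the members of the mitochondrial and of the cytosolic ribosome was not tested.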

How the data were processed

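Per the labels' protocols, libraries were stranded and made from gata1-positive cells after removal of ribosomal RNA. The submitters' processing notes name the GRCz10 build, Cufflinks 2.2.1, STAR 2.4.2a, Trim Galore and Picard. Neither the annotation release nor the use of strand in counting is given in the sources used here. The authors deposited FPKM for each gene in each library, as the column headers say. They hold no counts, so the depth of each library is unknown. Their sums ran from 293816 to 422870 FPKM per library, with 20247 to 21595 rows above 0.

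From there, log2(FPKM + 1) was fitted with limma 3.58.1 in R 4.3.3 (two-sided, eBayes with trend after lmFit) on the 13003 rows whose mean was 1 FPKM or more. P-values were adjusted by the Benjamini-Hochberg method over those rows. A fold on the FPKM + 1 scale understates the change of low genes. Members were described by counts and medians, with no test over the list. Subunits and classes were assigned by hand from mammalian nomenclature. The members and the lists were chosen with earlier results of these data known. Genes were named where they passed the test, stood nearest to it, or were the highest or lowest in level, and others are said to be picked afterwards. On simulated data of 13003 genes for this comparison, 14% of genes changed 1.5-fold, 58% of those changed 2-fold and 88% of those changed 3-fold were recovered. Only 50 genes were changed at each fold there, whereas 1864 rows passed in the data. The adjusted threshold was therefore stricter in the simulation, and these shares do not give the power of the test on the data. In all, 22 alternatives were run. Tables were handled with pandas 2.3.3 and figures drawn with matplotlib 3.10.9.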

Additional observations from a re-analysis of the deposited data

Results flagged for a closer look

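In 6 of 182 groups of 5 libraries, over 91 genes, the highest library stood apart from the rest by more than 0.71 of the group's range, and chance flags about 1 in 20 groups. For mrpl12, a member that rose, mutant 4 was at 46.0 FPKM and the other mutants at 28.3 to 33.2. For mrpl51, mutant 4 was at 51.7 FPKM and the others at 27.3 to 30.6. For mrpl23, mutant 6 was at 17.2 FPKM and the others at 10.1 to 12.04. For mrpl4, sibling 6 was at 14.3 FPKM and the others at 8.53 to 9.55. For mrpl10, sibling 4 was at 11.1 FPKM and the others at 5.59 to 6.65. For supv3l1, sibling 6 was at 5.46 FPKM and the others at 2.04 to 2.90.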

How the results depend on the processing

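The number of rising members depended on some of the choices made, and their direction did not. Of 75 tested members 17 rose. The count was 10 with no filter on low values and 3 with sibling 2 counted as a mutant. Without any 1 library it was 8 to 13. The number of rising rows over the whole table moved as well. It was 727 of 13003 in the main fit, 605 of 25707 with no filter and 300 with sibling 2 counted as a mutant. With array weights it was 921, and without any 1 library 528 to 733. In every alternative 0 members fell. The median log2 fold change of the members stayed at 0.16 to 0.28 when libraries were left out in turn. Rising large subunit genes numbered 2 with sibling 2 counted as a mutant, 5 to 8 without any 1 library and 13 with array weights, against 9. Rising small subunit genes numbered 4 with no filter, 1 with sibling 2 treated as a mutant, 5 with mutant 1 and sibling 2 both left out, and 3 to 6 without any 1 library, against 8. Of the other nuclear genes of mitochondrial translation and DNA expression 8 rose. That count was 5 with no filter, 1 with sibling 2 treated as a mutant and 5 with mutant 1 and sibling 2 both left out. It was 3 to 9 without any 1 library, 10 with median of ratios scaling, and 11 with quantile normalization or array weights. Of these genes 2 fell, against 1 at a mean of at least 5 FPKM, 1 with an equal sum of the other rows, 0 with sibling 2 treated as a mutant, 1 with mutant 1 and sibling 2 both left out, and 1 to 3 without any 1 library. The cause was not tested.

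Whether the replicate numbers pair the samples could not be settled, and the main fit used no pairing. Deviations from the group mean of same-numbered libraries correlated at -0.028, 0.090, 0.104 and 0.151 for replicates 3 to 6. Those of differently numbered libraries correlated at -0.272 to 0.297, and both ends of this range involved sibling 2. Among replicates 3 to 6 alone, differently numbered libraries correlated at -0.084 to 0.175. With the replicate number as a block, 11 members rose and 0 fell, 5 small subunit genes rose and 0 of the other nuclear genes fell. Over 43 gene results and 936 values under alternatives, 761 kept their side of the threshold, 156 lost a call, 19 gained one and 0 called values reversed. Over all rows, 727 were higher and 1137 lower, against 918 and 967 with median of ratios scaling and 987 and 1008 with quantile normalization. Depth is unknown from FPKM, so the precision of low members such as MRPL52 and mrpl53 cannot be given.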
